A study of Drosophila melanogaster with 12 samples.

Results

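The transcripts described here are 9 genes of the larval immune response of Drosophila melanogaster: the Bomanins BomS2, BomS4, BomS6 and BomBc2, the antimicrobial peptide genes Drs, DptB and Mtk, the infection-induced peptide gene edin, and Drsl5, a relative of Drs. A probe set was taken when its platform gene symbol, current symbol or a synonym was one of these names, which gave 1 probe set for each gene, 9 of the 18952 probe sets on the array and 9 of the 11982 genes with a named probe set. The genes were chosen by their intensities on these arrays, since single control arrays stood out for them, so every comparison that uses the control arrays, fitted values and calls included, is a description and supports nothing.

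Whole male larvae of the strain Canton-S were measured on 12 Affymetrix arrays, with 3 biological replicates in each of 4 groups, and precision is limited by this small number of arrays. Wandering larvae, picked after they had stopped feeding, had eaten control food (0.15 M sucrose) or high sugar food (1 M sucrose) from hatching on. Mid-L3 larvae, which were still feeding in the middle of the last instar, had all been raised on control food and then spent 12 h on fresh control or fresh high sugar food. All 4 groups shared the strain, the sex, the semi-defined food base and rearing without a labelled infection or wound, and the labels do not say how many larvae went into an RNA sample. The deposited values are intensities in arbitrary units, 1 per probe set and array.

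In flies, cell wall fragments of bacteria and fungi are sensed by recognition proteins that switch on the Toll and Imd pathways. Both pathways end in transcription factors of the NF-kappaB family, which drive secreted peptides in the fat body, in blood cells and in epithelia such as the gut. Drs and the Bomanins are classic outputs of Toll, diptericins are classic outputs of Imd, and several peptide genes, Mtk among them, respond to both. In whole larvae, a change in the number of cells that make a transcript cannot be told apart from a change in the amount per cell.

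Before any comparison, 2 arrays have to be set apart. The array numbered 1 of the mid-L3 larvae on control food and the array numbered 1 of the wandering larvae on control food carried the highest intensities of most of these genes in their groups. For each gene, the excess of an array is its log2 level, taken as log2 of intensity plus 12.7 after quantile normalization, minus the mean of the other arrays of its group. In mid-L3 larvae on control food, 7 of the 9 genes had an excess of at least 1 log2 unit on array 1, against 0.274% of the 8387 genes bright enough to test. In wandering larvae on control food, 4 of the 9 did, against 0.799% of all genes. The median excess of the 9 genes was 3.44 in mid-L3 and 0.66 in wandering larvae, while the median over all genes was -0.01 on both arrays. The genes were chosen for this pattern, so nothing is read from these shares. Counts of calls among the 9 genes that rest on those arrays are given with and without them. For other genes the arrays were left out only where this is said. Without them 7 of the 9 genes are bright enough to test, and BomS2 and edin are not, so no call is given for those 2 genes there.

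The array-by-array view also shows which genes were high where. BomS2, BomBc2 and BomS6 passed an excess of 1 log2 unit on both control arrays numbered 1, and 4 of the 8387 genes did (0.0477%). BomS4 passed it only on the wandering array, and Drs, DptB, Mtk and edin only on the mid-L3 array; whether the excess of a gene differed between the stages was not tested. Drsl5 passed it on neither. On the arrays numbered 1 of the high sugar groups, none of the 8387 genes (0%) passed in both stages.

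**Figure D1:**
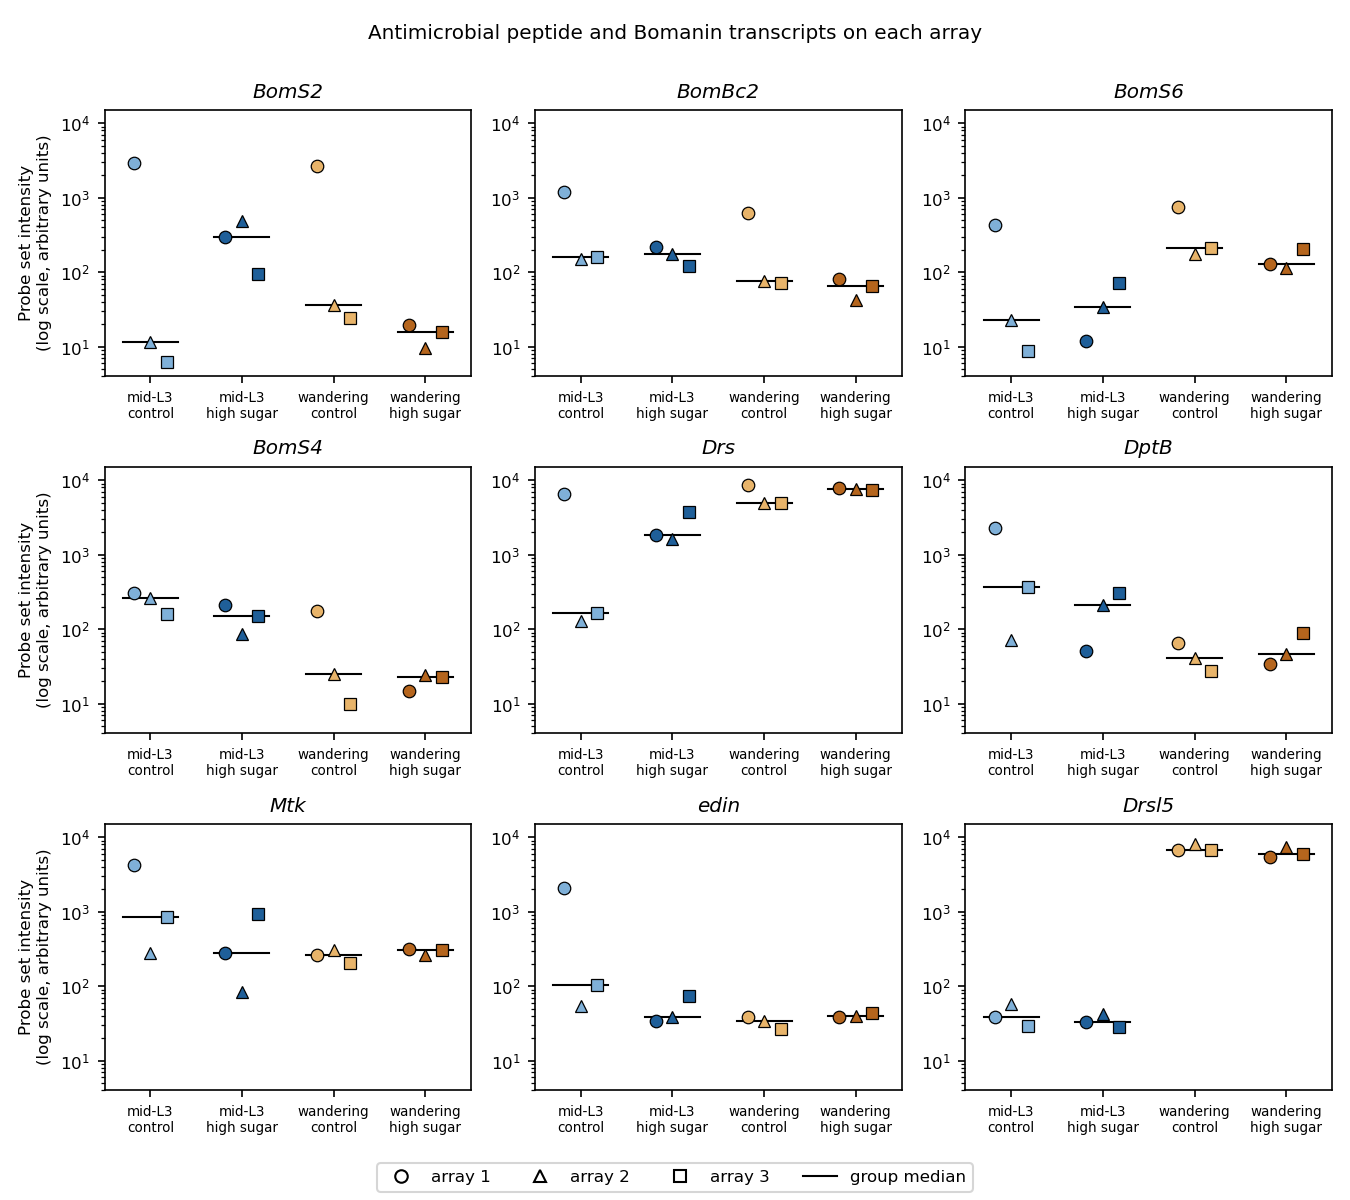
Intensity of the 9 genes on each of the 12 arrays (y axis, log scale, arbitrary units; x axis, group); circles, triangles and squares are arrays 1, 2 and 3 of a group, and lines are group medians. The circles of the control groups lie far above the other control arrays for BomS2, BomBc2 and BomS6 in both stages, and for Drs, DptB, Mtk and edin in mid-L3 larvae. Drsl5 differs by stage, has no raised array 1 and was highest on array 2 in each group.

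The Bomanins are short secreted peptides that are induced through Toll and that flies need to survive infection by fungi and many Gram-positive bacteria. The short forms (BomS) are little more than the Bomanin motif itself, and the bicipital forms (BomBc) carry a pair of motifs. In the order of genes in the RefSeq annotation (Release 6 plus ISO1 MT), BomS4, BomBc2 and BomS2 follow each other directly on chromosome 2R, and BomS6 lies a few genes further on, next to BomS5.

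BomS2 intensity in mid-L3 larvae on control food was 2931 on array 1, 11.4 on array 2 and 6.24 on array 3. In wandering larvae on control food it was 2668, 36.3 and 24.1 in the same order. Array 1 thus read 333 times the mean of its group's other arrays in mid-L3 larvae and 88.4 times in wandering larvae, and since arrays 2 and 3 were dim, the size of these ratios depends on the scanner background, for which no detection calls were analysed here. On high sugar food the mid-L3 arrays read 298, 485 and 95.3, between the high and the low control arrays. The wandering arrays on high sugar food read 19.3, 9.67 and 15.7, below every wandering control array. Of all 8387 genes, BomS2 had the largest spread around its group means (residual SD 2.73 log2, against a median of 0.16), and without the 2 arrays its spread was 0.67.

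BomBc2 intensity was 1208, 152 and 157 in mid-L3 larvae on control food, with array 1 at 7.82 times the mean of the others. In wandering larvae on control food it was 625, 75.5 and 71.3, with array 1 at 8.51 times the others. The high sugar arrays read 220, 173 and 123 in mid-L3 larvae and 81.7, 42.6 and 65.2 in wandering larvae, around the values of control arrays 2 and 3. In both stages, control array 1 was therefore the highest of the 6 arrays of its stage by a wide margin.

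BomS6 intensity was 428, 22.8 and 8.67 in mid-L3 larvae on control food and 748, 173 and 211 in wandering larvae on control food. Array 1 was 27.2 times the mean of the others in mid-L3 larvae and 3.89 times in wandering larvae. The high sugar arrays read 11.9, 33.8 and 71.7 in mid-L3 larvae and 127, 114 and 205 in wandering larvae. Apart from mid-L3 control array 1, every mid-L3 array lay below every wandering array.

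BomS4 was not set apart on the mid-L3 array: the control arrays read 303, 259 and 161, with array 1 at 1.44 times the mean of the others. The mid-L3 arrays on high sugar food read 211, 84.8 and 148, which overlaps the control arrays. In wandering larvae on control food BomS4 intensity was 176, 25.4 and 9.99, with array 1 at 9.96 times the others, and on high sugar food it was 14.7, 24.5 and 23.0. Control arrays 2 and 3 of BomS2 and of BomS4 thus differed in opposite ways between the stages: BomS2 was dimmer in mid-L3 than in wandering larvae, and BomS4 was brighter.

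Drs encodes Drosomycin, an antifungal peptide of the defensin type and the usual readout of Toll signalling in flies. Its intensity in mid-L3 larvae on control food was 6538 on array 1, 129 on array 2 and 165 on array 3. Mid-L3 larvae on high sugar food read 1831, 1622 and 3760, all above control arrays 2 and 3 and all below control array 1. Wandering larvae read 8487, 4872 and 4912 on control food and 7754, 7635 and 7406 on high sugar food. Wandering control array 1 was the highest of all 12 arrays, at 1.73 times the mean of the other wandering control arrays. The 3 wandering high sugar arrays lay within 0.03 log2 units of each other, and the 3 mid-L3 control arrays spanned 5.11.

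DptB encodes Diptericin B, a glycine-rich peptide active against Gram-negative bacteria, and lies next to its paralogue DptA. DptB intensity in mid-L3 larvae was 2277, 71.5 and 371 on control food and 50.6, 209 and 305 on high sugar food. Control array 1 stood at 10.3 times the mean of the others, and the remaining mid-L3 arrays of both foods overlapped. Wandering larvae read 65.1, 40.9 and 27.8 on control food and 34.4, 46.2 and 88.8 on high sugar food, so that wandering control array 1 lay inside the range of the high sugar arrays.

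Mtk encodes Metchnikowin, a proline-rich peptide known mainly for its action on fungi. Mid-L3 intensities were 4242, 279 and 842 on control food and 279, 82.4 and 928 on high sugar food. Control array 1 was the highest of these arrays at 7.57 times the mean of control arrays 2 and 3, and those 2 arrays overlapped the high sugar arrays. The wandering arrays were close to each other, at 260, 305 and 205 on control food and 319, 264 and 310 on high sugar food. Mtk kept one of the largest spreads of all genes when both control arrays numbered 1 were left out (residual SD 1.03 log2, rank 9 of 8387).

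The gene edin, short for elevated during infection, encodes a secreted peptide induced by bacteria and by parasitoid wasps. Its intensity was 2103 on mid-L3 control array 1, 53.6 on array 2 and 104 on array 3. Mid-L3 larvae on high sugar food read 34.1, 39.0 and 73.7. All 6 wandering arrays lay between 26.3 and 43.7, with no raised control array. The raised edin signal was thus seen on 1 array of 12, at 26.6 times the mean of its group's other arrays.

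Drsl5, a drosomycin-like gene that lies beside Drsl4 and apart from Drs on chromosome 3L, followed another pattern. Its intensity was 38.0, 57.8 and 29.1 in mid-L3 larvae on control food and 33.4, 42.4 and 27.9 in mid-L3 larvae given high sugar food. In wandering larvae it was 6620, 8130 and 6807 on control food and 5455, 7355 and 5953 on high sugar food. The stages did not overlap on either food, and neither control array 1 was the highest of its group. Its spread around the group means (residual SD 0.30 log2) was below that of the other 8 genes.

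The other members of these families were examined on the same arrays. Of 18 antimicrobial peptides listed besides the members, 10 had a probe set with 1 named gene, and so did 8 of 19 other Bomanins and Toll-induced secreted peptides. AttA, CecA1, DptA, BomS1 and BomS3 are among those not analysed here. On mid-L3 control array 1, 4 of the 10 peptides and 4 of the 8 Bomanins and secreted peptides had an excess of at least 1 log2 unit (0.484% of all 11982 genes without a filter on dim genes). On wandering control array 1 the counts were 1 and 3 (0.668% of all genes). Against the median of the 6 arrays of a stage, 7 of these 18 genes were raised by at least 1 log2 unit on mid-L3 control array 1 and 5 on wandering control array 1, and 0 to 2 were on each of the other 10 arrays.

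BomS5 and BomT2, both below the filter on dim genes, were raised on both control arrays numbered 1. BomS5 intensity was 308, 12.9 and 11.4 in mid-L3 and 384, 8.79 and 11.6 in wandering larvae on control food, an excess of 3.85 and 3.97. It was also 175 on array 3 of the mid-L3 larvae on high sugar food, where the other arrays read 13.0 and 10.7. BomT2, which encodes a tailed Bomanin, read 245, 6.22 and 6.47 in mid-L3 and 518, 25.8 and 30.2 in wandering larvae on control food. Of the 11982 genes, 9 (0.0751%) passed an excess of 1 log2 unit on both arrays, and 5 of the 9 were Bomanins, the 3 described above with BomS5 and BomT2. The others were CG8160, CG42715, TotC and CG4793, of which TotC encodes a stress-induced secreted peptide of the Turandot family and read 642, 18.6 and 9.01 in wandering larvae on control food.

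Other peptide genes were raised on the mid-L3 array alone. These genes were picked after their values were seen. Def, which encodes the insect defensin active against Gram-positive bacteria, read 1030, 16.6 and 42.6 in mid-L3 and 49.8, 45.8 and 58.0 in wandering larvae on control food. BomT3 read 447, 16.0 and 12.1 in mid-L3 and 3.58 to 4.79 in wandering control larvae, and BomBc3 read 425, 26.6 and 40.8 in mid-L3 and 12.0 to 21.6 in wandering larvae on control food. Drsl2, another drosomycin relative, ran the other way in wandering larvae on control food, with 167 on array 1, 1801 on array 2 and 1463 on array 3. On high sugar food the wandering arrays of Drsl2 read 223, 195 and 475, in the range of control array 1.

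**Figure D2:**
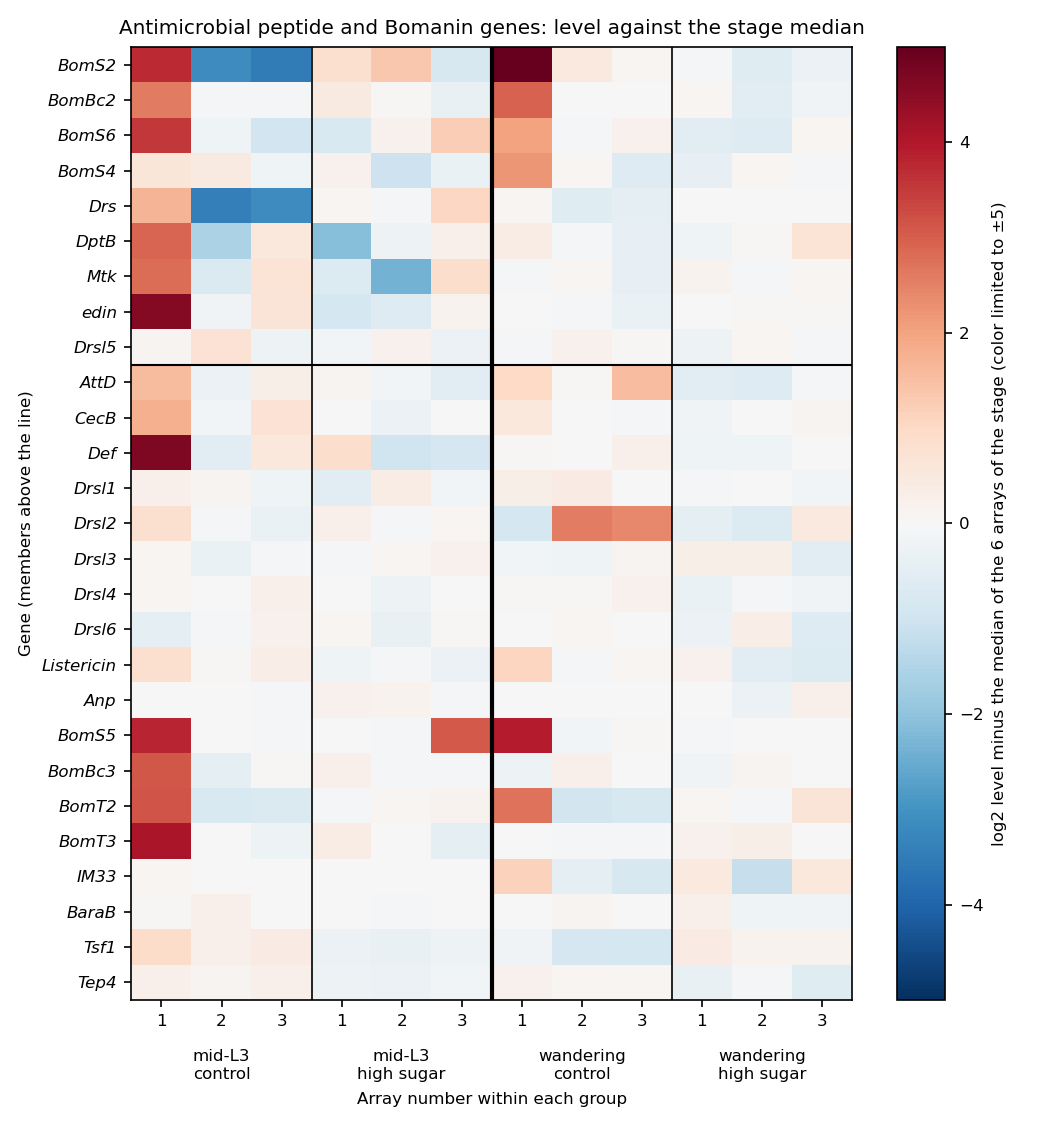
The 9 genes (above the line) and 18 genes of the same families (below), shown as the log2 level on each array minus the median of the 6 arrays of its stage (colour, limited to 5 in both directions), by array number within each group (x axis). Columns 1 of the control groups carry the raised values, with 7 of the 18 family genes raised by at least 1 log2 unit in mid-L3 and 5 in wandering larvae.

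Genes upstream of these peptides, and other immune and stress genes, were set beside the same arrays. Over all 11982 genes, 0.484% had an excess of at least 1 log2 unit on the mid-L3 array and 0.668% on the wandering array. A list of this size with no such gene is therefore no result about its pathway. Of 16 Toll pathway genes on the array, SPE, which encodes the protease that activates the Toll ligand Spätzle, had an excess of at least 1 log2 unit on wandering control array 1 (1.41), and none had one on mid-L3 control array 1. SPE intensity was 142, 47.1 and 33.6 in wandering larvae on control food. None of 13 Imd pathway genes had such an excess on either array, and their median excess was 0.05 in mid-L3 and -0.0014 in wandering larvae. Of 6 peptidoglycan recognition and amidase genes, 1 had it, PGRP-SB1, an amidase gene, with 2532, 166 and 420 in mid-L3 larvae on control food and an excess of 2.97. In wandering larvae its arrays read 644, 1270 and 656 on control food. None of 14 melanization and clotting genes, and none of 5 heat shock and stress genes, passed on either array. Of 9 JAK/STAT and stress peptide genes, 2 had it on wandering control array 1, TotC (4.50) and TotB (2.06), and TotC also had it on the mid-L3 array (1.10). TotE, a Turandot gene outside that list picked after its value was seen, had an excess of 5.20 on wandering control array 1, rank 2 of the 11982 genes. Of 3 lysozyme genes, LysP had one on mid-L3 control array 1 (1.31), with 112, 22.6 and 67.6 in mid-L3 larvae on control food.

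Markers of the tissues that make these peptides were set beside the 2 arrays. None of 5 fat body markers and none of 11 hemocyte markers had an excess of 1 log2 unit on either array. Over all genes, 0.484% had one on the mid-L3 array and 0.668% on the wandering array, so none was the likely count for lists this short. The summed intensity of the fat body markers on arrays 1, 2 and 3 was 34664, 30881 and 32394 in mid-L3 and 41996, 38170 and 38444 in wandering larvae on control food, highest on array 1 in both. The summed intensity of the hemocyte markers was 10227, 9037 and 9276 in mid-L3 and 6603, 6000 and 5324 in wandering larvae on control food, again highest on array 1. On high sugar food the hemocyte sums were 9013 to 10435 in mid-L3 and 5470 to 6846 in wandering larvae, and the fat body sums 24656 to 31222 and 39354 to 41159. Of 6 midgut markers, 1 had an excess above 1 log2 unit on wandering control array 1 (1.17) and none on the mid-L3 array. Their summed intensity was 40553, 38071 and 37829 in mid-L3 and 37953, 36305 and 32666 in wandering larvae on control food. A sum highest on array 1 was thus not particular to fat body and hemocyte markers. The sum of the heat shock and stress genes was highest on array 1 in neither stage. No marker of these lists was at 0 on any array. The lowest value of any probe set was 0.434, so this shows nothing about these tissues. The part of tissue content in the raised peptide signal was not tested. The labelled stages were matched by the salivary gland glue genes, of which 6 of 6 passed as higher in wandering larvae on each food. Among all genes, 39.4% passed as higher in that stage for the control groups and 38.2% for the high sugar groups. The glue genes had a median log2 difference, wandering minus mid-L3, of 7.60 in the control groups and 6.99 in the high sugar groups. Within mid-L3 larvae their summed intensity varied widely. It was 463, 141 and 898 on control arrays 1, 2 and 3 and 184 to 4069 on high sugar food. Whether the mid-L3 arrays differed in developmental age was not tested.

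**Figure D3:**
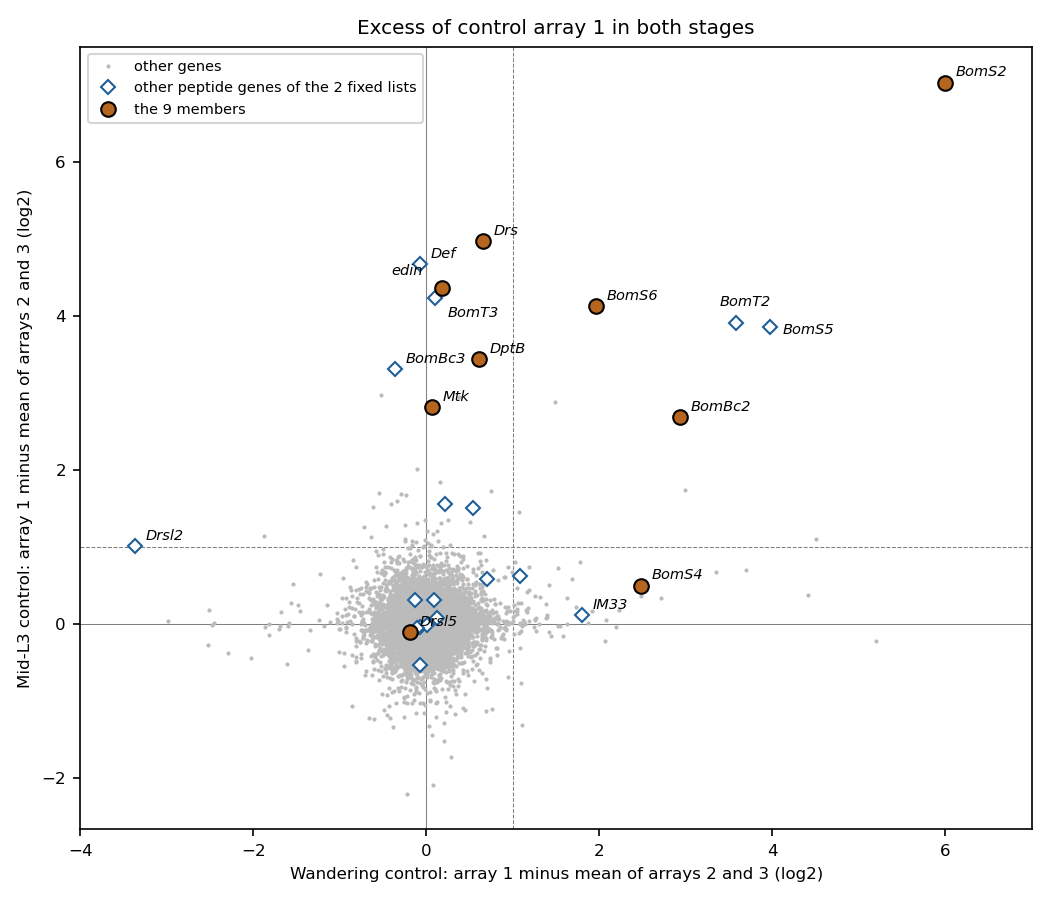
Excess of control array 1 over the mean of the other arrays of its group, in wandering (x axis) and mid-L3 larvae (y axis), in log2 units, for all 11982 genes; filled circles are the 9 genes, open diamonds other genes of the families, and dashed lines mark 1 log2 unit. BomS2, BomBc2, BomS6, BomS5 and BomT2 lie beyond both lines, while Drs, DptB, Mtk, edin, Def, BomT3 and BomBc3 lie beyond the mid-L3 line only.

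Outside the control groups, mid-L3 larvae on high sugar food were the group with the widest spread. On its array 3, 4 of the 9 genes had an excess of at least 1 log2 unit (0.119% of all genes), and on its array 2, 1 did (0.513%). Array 3 was highest for Drs, BomS6, DptB, Mtk and edin, and BomS2, BomBc2 and Drsl5 were lowest there. In wandering larvae on high sugar food no array had such an excess for any of the 9 genes (0.286%, 0.227% and 0.489% of all genes on arrays 1, 2 and 3).

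The first comparison asked what 12 h on high sugar food did in mid-L3 larvae. With all 12 arrays, 0 of the 9 genes passed limma's moderated test at an adjusted p of 0.05, where 14% of all genes passed. Because control array 1 helped to choose the genes, the fitted values are a description here and in each later comparison that uses control arrays. The log2 difference, high sugar minus control, was 1.96 for Drs (95% interval -0.14 to 4.07, limma adjusted p = 0.217) and 1.42 for BomS2 (-2.47 to 5.31, adjusted p = 0.665). It was -2.13 for edin (-4.01 to -0.26, adjusted p = 0.126), -1.65 for Mtk and -1.32 for DptB. The groups overlapped for all 9 genes, while they did not for 39.5% of all genes.

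Without both control arrays numbered 1, 1 of the 7 genes that could be tested passed in that comparison, Drs, higher on high sugar food, where 9.73% of all genes passed and 5.03% passed as higher. Drs was higher by 3.61 log2 units (95% interval 3.04 to 4.18, limma adjusted p = 2.1e-05), from 129 and 165 on the control arrays that remained to 1622 to 3760 on high sugar food. BomS2, too dim to test there, read 11.4 and 6.24 on the remaining control arrays and 95.3 to 485 on high sugar food. With that choice the differences of Mtk (-0.71), DptB (-0.18) and BomS4 (-0.50) were smaller in size than with all arrays, and those of BomBc2 (0.11) and BomS6 (0.80) had the opposite sign. Leaving out arrays by the level of these genes fixes part of this outcome, so the call of Drs holds no more than the listed intensities. Leaving out mid-L3 control array 2 in place of array 1 turned DptB into a call, lower on high sugar food. Its difference was -2.41 (limma adjusted p = 0.0492). The difference of edin was then -3.07, but edin is bright enough to test only with mid-L3 control array 1, where it was high. No call is given for edin there.

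The second comparison asked what rearing on high sugar food did in wandering larvae, and 0 of the 9 genes passed, where 6.37% of all genes did. The fitted differences ran from -2.62 for BomS2 (95% interval -6.51 to 1.27, limma adjusted p = 0.417) to 0.34 for Drs (-1.77 to 2.45, adjusted p = 0.878). The groups did not overlap for BomS2, lower on high sugar food, and for edin, higher by 0.19, where 21.5% of all genes had groups that did not overlap. Without both control arrays numbered 1, again none of the 7 genes passed (3.92% of all genes), and the differences ran from -0.42 for BomS6 to 0.56 for Drs (95% interval -0.01 to 1.13, adjusted p = 0.308). For Drsl5 the difference was -0.16 (-0.61 to 0.28, adjusted p = 0.690).

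The diet differences of the stages were also compared with each other, as wandering minus mid-L3. With all arrays 0 of the 9 genes passed (7.76% of all genes). Without both control arrays numbered 1, 1 of the 7 genes passed, Drs (-3.05, 95% interval -3.85 to -2.24, limma adjusted p = 9.5e-04), where 5.39% of all genes passed and 2.64% were negative. This call carries the same limit as the mid-L3 call it comes from.

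Wandering and mid-L3 larvae on high sugar food were compared on 6 arrays that include no control array. The wandering larvae had eaten this food from hatching on, and the mid-L3 larvae for 12 h. Stage and length of exposure therefore cannot be told apart in this comparison. In the stage comparison on either food, only the mid-L3 larvae were described as moved to fresh food. Of the 9 genes, 2 passed, where 79.1% of all genes passed, so a call in this comparison was the common outcome. Drsl5 rose by 7.23 log2 units in wandering larvae (SE 0.21, limma adjusted p = 1.8e-11), and BomS4 fell by 2.33 (SE 0.56, adjusted p = 0.0019), while 38.2% of all genes passed as higher and 40.9% as lower. The groups did not overlap for 6 of the 9 genes (80.6% of all genes), which were these 2 with Drs and BomS6, higher in wandering larvae, and BomBc2 and BomS2, lower. Their differences did not pass, at 1.94 for Drs (adjusted p = 0.0836), 1.58 for BomS6 (0.142), -1.54 for BomBc2 (0.0837) and -3.33 for BomS2 (0.105).

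The spread in that test was shared with the control groups, and for 8 of the 9 genes it was wider with the control arrays numbered 1 than without them (residual SD 1.48 and 0.36 log2 for Drs). With the 6 high sugar arrays alone, 7 of the 9 passed (76.2% of all genes), and the other genes, Mtk and edin, did not (edin is too dim to test on these arrays). Drs (limma adjusted p = 1.2e-04), BomS6 (0.0106) and Drsl5 were higher in wandering larvae, and BomBc2 (3.2e-04), BomS2 (2.1e-04), BomS4 and DptB (-1.51, 0.0332) were lower. Of the 7 genes bright enough without both control arrays numbered 1, 6 passed (78% of all genes), and 7 of the 9 passed without mid-L3 control array 1 alone (78.4%). Mtk and edin both differed by -0.24, with 95% intervals of -1.97 to 1.48 for Mtk and -2.11 to 1.63 for edin. Among the Bomanins, BomS6 was thus higher in wandering larvae and BomS2, BomS4 and BomBc2 lower, in the fit of the 6 arrays alone.

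On control food, 6 of the 9 genes passed between the stages, 2 higher and 4 lower in wandering larvae, where 79.2% of all genes passed, 39.4% as higher and 39.8% as lower. These values rest on the control arrays that chose the genes and are a description. Higher in wandering larvae were Drsl5 (7.13, SE 0.21, limma adjusted p = 1.8e-11) and Drs (3.56, SE 0.97, adjusted p = 0.0045). Lower were DptB (-3.04, adjusted p = 0.0063), edin (-2.56, 0.0156), BomS4 (-2.32, 0.0020) and Mtk (-2.07, 0.0292). The gene edin is bright enough to test only with mid-L3 control array 1, where it was high, so its call supports nothing. The groups did not overlap for DptB, edin and Drsl5 (83% of all genes). BomS6 (2.07, adjusted p = 0.0600), BomBc2 (-1.15, 0.188) and BomS2 (0.71, 0.722) did not pass.

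Control arrays of the same number correlated over genes at 0.122 to 0.178 between the stages in all 3 pairs, and those of unlike number at -0.181 to 0.073. Unlike-numbered arrays of the foods reached 0.174 in mid-L3 and 0.389 in wandering larvae, so pairing is not established. The comparison of the stages on control food was also fitted with the number as a block. In the 6 control arrays alone with the block, 9 of 9 passed, 4 higher and 5 lower in wandering larvae (80% of all genes passed). BomBc2 (limma adjusted p = 7.4e-05), BomS6 (0.0059) and BomS2 (0.0232, higher in wandering larvae) were added, and with the block over all 12 arrays 7 passed (78.2% of all genes). The fit of the 6 control arrays was chosen after the data were seen, rests on the arrays that chose the genes, and supports nothing. Without both control arrays numbered 1, 6 of the 7 genes bright enough passed (74.4% of all genes), where BomBc2 (-1.23, adjusted p = 0.0011) and BomS6 (2.79, 5.0e-04) were added and Mtk no longer passed (-1.15, 0.201). Drs was then higher by 4.99 (adjusted p = 5.6e-08) and Drsl5 by 7.15, and BomS4 (-2.98, 3.6e-05) and DptB (-2.09, 0.0271) were lower. Mtk also failed without any one of the wandering control arrays (adjusted p = 0.0556, 0.0502 and 0.0722 without array 1, 2 and 3).

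**Figure D4:**
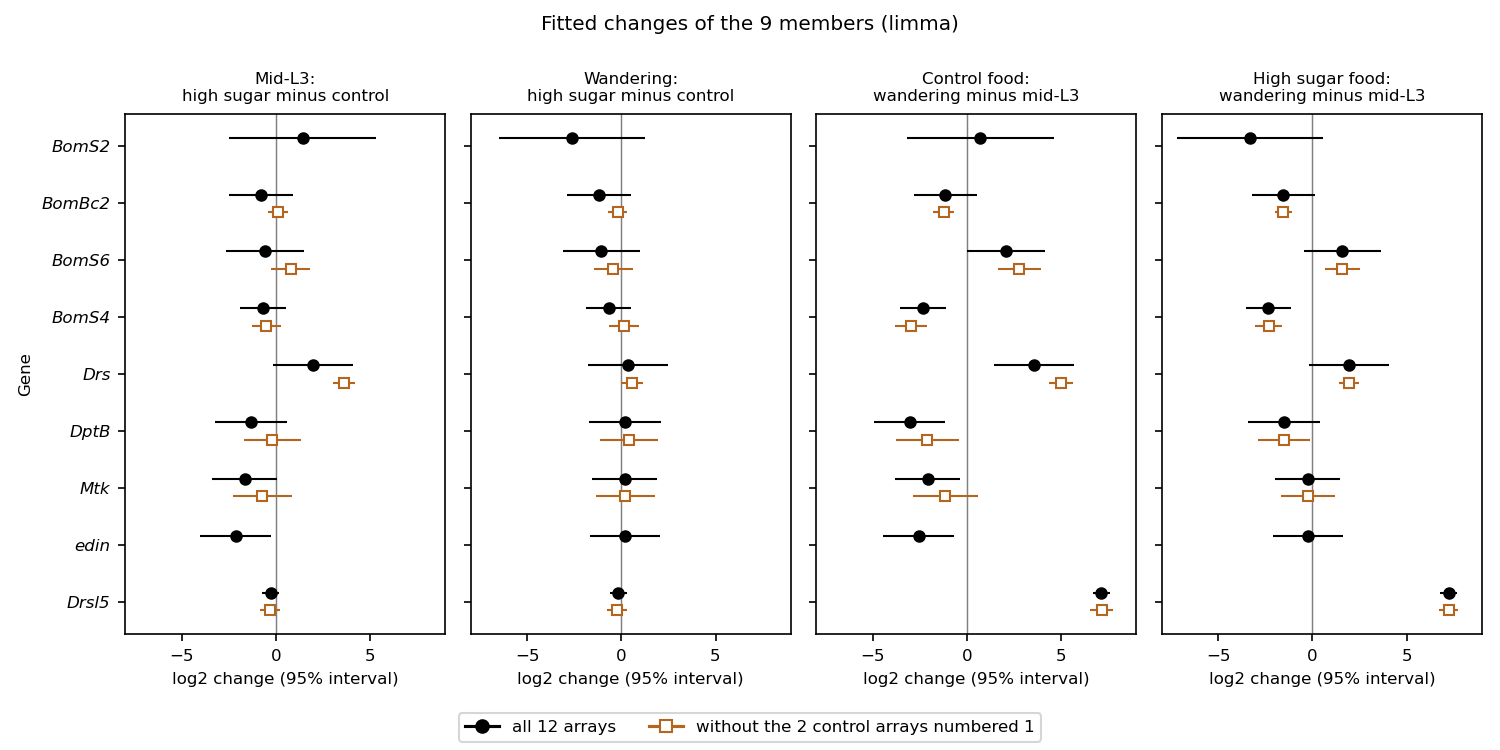
Fitted log2 differences of the 9 genes with 95% intervals (x axis) in 4 comparisons (panels), from all 12 arrays (filled circles) and without the 2 control arrays numbered 1 (open squares). BomS2 and edin have no square, as they are too dim to test without those arrays. The intervals of Drs and the other raised genes narrow without them, and Drsl5 is near 7 in both stage comparisons under either choice.

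The pathway genes were fitted in the same comparisons. In wandering larvae 2 of 15 Toll pathway genes passed, both lower on high sugar food (6.37% of all genes passed): nec, which encodes a serpin that restrains the protease cascade above Toll, fell by 0.94 (SE 0.17, limma adjusted p = 0.0047), and Pli fell by 0.46 (adjusted p = 0.0408). In mid-L3 larvae 3 of 15 passed (14% of all genes). SPE fell by 1.45 on high sugar food (SE 0.31, adjusted p = 0.0078), from 825, 574 and 534 to 231, 195 and 198, and grass, a protease of the same cascade, fell by 0.62 (adjusted p = 0.0388). The protease gene psh rose by 0.40 (adjusted p = 0.0315). Without both control arrays numbered 1, nec and SPE passed and the other 3 did not (Pli adjusted p = 0.0877, grass 0.132, psh 0.120).

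Of 13 Imd pathway genes, none passed for diet in wandering larvae (6.37% of all genes) and 1 rose in mid-L3 larvae (14%), ben (0.31, limma adjusted p = 0.0205), which encodes a ubiquitin-conjugating enzyme. Of 6 peptidoglycan recognition and amidase genes, 3 fell on high sugar food in wandering larvae (6.37% of all genes passed). PGRP-SC2, an amidase gene, read 4203, 3443 and 2957 on control and 372, 362 and 369 on high sugar food, a fall of 3.55 (SE 0.16, adjusted p = 3.8e-08). PGRP-SB2 fell by 3.87 (adjusted p = 2.2e-05) and PGRP-LB by 0.67 (0.0441, and 0.191 without both control arrays numbered 1). In mid-L3 larvae PGRP-SB1 fell by 2.06 (adjusted p = 0.0498), a call that was lost without both control arrays numbered 1 (-1.07, adjusted p = 0.0814).

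Among the other peptide and secreted genes, few were bright enough to test. Of 4 further antimicrobial peptide genes, none passed for diet. Drsl2 was 1.59 lower on high sugar food in wandering larvae (limma adjusted p = 0.206), and passed without both control arrays numbered 1 (-2.70, adjusted p = 3.3e-04). Of 3 Toll-induced secreted genes, Tsf1, which encodes the iron carrier transferrin, rose by 0.88 in wandering larvae on high sugar food (adjusted p = 0.0156) and fell by 0.85 in mid-L3 larvae (0.0099). Tep4, a thioester protein gene, fell by 0.51 and 0.44 (adjusted p = 0.0154 and 0.0168, and 0.0802 and 0.0708 without both control arrays numbered 1). Of 3 lysozyme genes, LysS fell by 0.56 in wandering and 0.89 in mid-L3 larvae (adjusted p = 0.0280 and 7.4e-04), and without both control arrays numbered 1 the first call was lost (-0.52, adjusted p = 0.117).

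Between the stages, the pathway and peptide genes moved in both directions. On high sugar food the stages also differed in length of exposure, which cannot be told apart from stage. On high sugar food 4 of 15 Toll pathway genes were higher and 6 lower in wandering larvae, and 8 of 13 Imd pathway genes were higher and 3 lower, where 38.2% of all genes passed as higher and 40.9% as lower. Pli rose by 2.68 and SPE fell by 2.65 (limma adjusted p = 4.7e-06). The Imd genes key, which encodes the regulatory subunit of the IkappaB kinase, and pirk, an inhibitor of the pathway, rose by 1.15 and 1.25. Of the 4 further antimicrobial peptide genes 2 were higher, Drsl2 (3.22) and Listericin (1.96), and 2 lower, Drsl4 (-1.45) and Anp (-1.23). IM33, an immune-induced peptide gene, fell by 2.71 (adjusted p = 1.4e-04). On control food the counts were 7 higher and 4 lower for Toll and 8 higher and 1 lower for Imd, where 39.4% of all genes passed as higher and 39.8% as lower. Without both control arrays numbered 1 they were 5 higher and 4 lower for Toll and 7 higher and 1 lower for Imd (74.4% of all genes passed).

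The genes whose deviations from the 4 group means most resembled the mean deviation of the 9 genes were sought among 636 genes with a residual SD of at least 0.3 log2. The correlations are over 12 arrays and share the 2 raised arrays. The highest was Bbd, which encodes Bombardier, a secreted peptide that Bomanin function depends on, with r = 0.92. The value was 0.86 with both control arrays numbered 1 left out of the correlation but kept in the group means. The raised arrays therefore still shape that value. Bbd intensity was 1574, 157 and 178 in mid-L3 larvae on control food, 285, 243 and 668 on high sugar food, 2145, 1787 and 1454 in wandering larvae on control food and 1882, 1915 and 2192 on high sugar food. Sid, which encodes a stress-induced DNase, followed with r = 0.83 (0.71 by the same choice) and read 140, 21.8 and 37.0 in mid-L3 larvae on control food. CG3513 (0.79), CG4716 (0.75), CG8160 (0.75) and PGRP-SB1 (0.74) came next, and CG8160 read 808, 178 and 252 in mid-L3 and 1064, 130 and 134 in wandering larvae on control food. Within the 9 genes the same correlation, in which each gene is part of the mean, ran from 0.52 for BomS4 to 0.95 for BomS6, and was -0.26 for Drsl5.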

How the data were processed

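Total RNA of whole larvae was labelled as biotin-carrying cRNA from 2 ug per sample, per the labels' protocols. The authors deposited linear intensities, 1 for each probe set on each array, and how probes were summarized and normalized is not given in the sources used here. Of 18952 probe sets, 13647 had 1 gene in the platform table, 402 had several and stayed unnamed, 4720 were unlisted and 183 were array controls. The Entrez identifier gave a current symbol for 13544. The probe set with the highest mean stood for a gene, which left 11982 genes. Arrays of mid-L3 larvae had a median intensity of 63.2 to 65.9, and those of wandering larvae of 80.6 to 83.8.

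An added constant of 12.7, the 20th percentile of the intensities, preceded log2 and quantile normalization. Genes whose mean lay below the 30th percentile were not tested (8387 were tested, all 9 members among them; with both control arrays numbered 1 left out the same 8387 genes were kept, but BomS2 and edin fall below the filter there and get no call). The 4 group means were fitted by limma 3.58.1 (R 4.3.3) with an intensity trend, residual df of 8 and prior df of 4.41, with p values adjusted by Benjamini-Hochberg over all genes at 0.05. The fit and the excess were tested on simulated data. P values measure the spread between the samples labelled as biological replicates. Fold changes understate the change of dim genes. Python 3.11.15 and matplotlib 3.10.9 drew the figures.

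The members, gene lists and tests were chosen with earlier results of these data known. The text takes all members, up to 3 genes per list with the smallest adjusted p per comparison or the largest excess, the 10 genes most like the members and the 10 with the largest smaller excess, and names part of them. Anp, Drsl2, Def, BomT3, BomBc3, TotB and TotE, and the genes Pli, pirk and SPE between the stages, were added after their values were seen. Same-numbered arrays of the diet groups did not pair (-0.262 to -0.057 in mid-L3 and -0.252 to 0.262 in wandering larvae). Those of the control groups correlated at 0.122 to 0.178. Unlike-numbered arrays of other group pairs reached up to 0.389, so pairing is not established, and the labels do not say what a number marks. Alternatives were the deposited values, median centring, other added constants and filters, the mean of probe sets, a replicate block, array weights, the compared arrays alone, and arrays left out.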

Additional observations from a re-analysis of the deposited data

Results flagged for a closer look

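The diet effect differed between the stages for 5 genes of the pathway lists by the interaction term in limma, where 7.76% of all genes passed. These were 1 of 3 Toll-induced secreted genes, 2 of 15 Toll pathway genes and 2 of 6 peptidoglycan recognition and amidase genes. None passed among 4 other antimicrobial peptide, 13 Imd, 4 JAK/STAT and stress peptide, 11 melanization and clotting, 3 lysozyme and 4 heat shock genes. The difference is given as the effect in wandering larvae minus that in mid-L3 larvae, in log2 units. For Tsf1 the difference was 1.73 (SE 0.27, adjusted p = 0.0015), since its level was higher on high sugar food in wandering larvae and lower in mid-L3 larvae. For nec it was -1.16 (SE 0.24, adjusted p = 0.0090), and for Pli -0.64 (SE 0.17, adjusted p = 0.0372, and 0.0588 without both control arrays numbered 1). For PGRP-SB2 it was -4.26 (SE 0.49, adjusted p = 1.9e-04). For PGRP-SC2 it was -3.51 (SE 0.23, adjusted p = 2.1e-06).

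Probe sets with no gene in the platform table were used in no comparison. Of 4720 such probe sets, 11 had an excess of at least 1 log2 unit on array 1 of both control groups, with a smaller excess of 1.20 to 6.62 and intensities of 61.6 to 5090 on those arrays. On the arrays numbered 1 of the high sugar groups, 0 of the 4720 did in both stages.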

How the results depend on the processing

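Of 2062 recomputed values for 87 gene and comparison pairs, 1901 kept their side of the threshold, 106 fell below it, 55 passed it and no called value changed direction. Dim genes limit the rest: with a filter at the 50th percentile 3 members were left. The calls were then 3 for the stages on control food and 1 on high sugar food, where 4776 and 4737 of 5991 genes passed. The median excess was 0.065 in wandering larvae. Without both control arrays numbered 1 the member calls were 2 for diet in mid-L3 larvae, 2 for the difference of the diet effects and 7 for the stages on high sugar food. Over the same 8387 genes, 816, 452 and 6545 passed. BomS2 is among those member calls and is in that fit only through the arrays left out. With the filter applied anew, an alternative chosen after seeing the data, the calls were 1, 1 and 6 of 7 members. Over all 8387 genes, 810, 451 and 6549 then passed. For the stages on high sugar food, the compared arrays alone gave 7 (6393 of 8387 genes), and also 7 with the filter applied anew (6397 of 8387). With the replicate number as a block over all 12 arrays, 4 members passed between the stages on high sugar food and 7 on control food, and 0 for either diet comparison. Leaving out each array in turn gave 0 to 2 member calls for diet in mid-L3 larvae (713 to 1526 of all 8387 genes). The 2 calls include edin, which is bright enough to test only with mid-L3 control array 1. For diet in wandering larvae there were 0 to 0 (278 to 1428 genes), and for the difference 0 to 1 (431 to 1279). Between the stages there were 5 to 6 on control food (6388 to 6831 genes) and 2 to 7 on high sugar food (6294 to 6669). The median excess was 2.65 to 3.77 in mid-L3 and 0.65 to 0.77 in wandering larvae, and the cause was not tested. In the values as deposited, the median gene was 0.18 and 0.17 higher in wandering larvae on control and high sugar food, and with median centring 0.12 and 0.11 lower. Centring also moved the share of higher calls for diet in mid-L3 larvae from 53.6% to 38.9% of all calls. Calls over all genes for diet in wandering larvae were 534, and 2381 with array weights, whose estimate did not converge, 329 without both control arrays numbered 1 and 218 with the 6 arrays alone. For diet in mid-L3 larvae they were 1178, 2525, 816 and 1791, and for the difference of the diet effects 651, and 2206 with array weights. Single arrays moved these counts by over 1.5 times: for diet in wandering larvae to 278 without control array 3, and 317, 1428 and 295 without high sugar array 1, 2 and 3; for diet in mid-L3 larvae to 713 without control array 3 and 756 without high sugar array 3; and for the difference to 1279 without wandering high sugar array 2, and 431 and 434 without mid-L3 control array 3 and mid-L3 high sugar array 3.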
